A study of Homo sapiens with 6 samples.

Results

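MYC intervals inside gene bodies are stretches of MYC-bound chromatin that overlap the span of a protein-coding gene but lie more than 2500 bp from both outermost ends of every protein-coding gene. They were taken from the authors' common peak list of cells given fibroblast-conditioned medium, with gene positions from the RefSeq gene table of GRCh38.p14. Of 9901 common intervals, 1279 (12.9%) met the rule. Another 7359 (74.3%) lay at a gene end and 1263 (12.8%) outside genes. MYC had been mapped by chromatin immunoprecipitation and sequencing (ChIP-seq) in MIAPaCa2, an established line from a human pancreatic ductal adenocarcinoma. All cells had spent 48 hours without serum. They then received, for 3 hours, either conditioned medium from primary cancer-associated fibroblasts (CM) or fresh serum-free DMEM, the control, and each condition has 2 immunoprecipitated libraries with their own peak lists. Separate cultures are not stated for the 2 libraries of CM or the 2 of DMEM, so their spread may be technical, and the results describe 1 cell line. Depth is unknown, since peak lists carry no read counts. The lists hold 15304 and 12797 peaks in CM and 4657 and 7652 peaks in DMEM.

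MYC binds DNA as a dimer with MAX, and the sequence it prefers is the E-box CACGTG. Most of its binding in tumour cells is at active promoters, many of them rich in CpG, and it is best known there for genes of ribosome production, translation and metabolism. A gene can have more than 1 transcription start, so a site deep inside the outermost span of a gene may still lie at the start of a shorter transcript or of a noncoding RNA. The members were therefore divided by the starts that RefSeq annotates. Within 1000 bp of an annotated start of a protein-coding gene lay 553 members (43.2%), beside 65.2% of all common intervals, a share that the rule itself lowers because it removes the outermost ends. A further 44 (3.44%) lay only at the start of a long noncoding RNA (lncRNA), and 514 (40.2%) had no annotated start within that distance. The host gene of the other 168 (13.1%) has no entry in the start table, so these were kept apart. Whether the members without a start act as enhancers cannot be read from peak lists and was not tested.

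The DNA just before 8 of these internal starts is given as chosen examples, which do not stand for the members as a whole. The stretches of KLF16, ING5, DCAKD and EPB41L4A-AS1, drawn by the same rules but not shown, hold neither motif marked here. Each line gives the 250 bases before the start, 5′ to 3′ on the transcribed strand, from RefSeq's GRCh38.p14 start windows. Capitals mark CACGTG or CGCGTG, a related sequence with 1 changed base that MYC and MAX also bind. LARP1 and PPRC1 are among the 3 highest-scoring coding-start members, and TAF12, THNSL1, RNF220 and RAP1GAP2 are the 4 highest-scoring coding-start members with CACGTG in this stretch. CDK5RAP3 is the highest-scoring member with no DMEM peak, and ELFN1-AS1 is the lncRNA start under the highest-scoring member of all.
LARP1: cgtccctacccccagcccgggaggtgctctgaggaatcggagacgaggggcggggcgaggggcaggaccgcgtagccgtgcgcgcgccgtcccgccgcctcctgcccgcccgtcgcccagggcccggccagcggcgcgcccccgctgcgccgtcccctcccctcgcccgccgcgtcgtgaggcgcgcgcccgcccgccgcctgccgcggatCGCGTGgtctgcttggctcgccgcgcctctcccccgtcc
PPRC1: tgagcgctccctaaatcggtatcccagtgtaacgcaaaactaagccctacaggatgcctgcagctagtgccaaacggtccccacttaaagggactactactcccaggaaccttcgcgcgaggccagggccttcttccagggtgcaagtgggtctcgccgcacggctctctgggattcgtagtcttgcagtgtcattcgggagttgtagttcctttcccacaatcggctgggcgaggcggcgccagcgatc
TAF12: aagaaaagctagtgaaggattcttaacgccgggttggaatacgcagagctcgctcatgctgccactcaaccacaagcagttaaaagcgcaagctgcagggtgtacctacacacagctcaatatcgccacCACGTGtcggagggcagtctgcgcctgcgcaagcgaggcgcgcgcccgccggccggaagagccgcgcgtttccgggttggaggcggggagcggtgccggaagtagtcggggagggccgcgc
THNSL1: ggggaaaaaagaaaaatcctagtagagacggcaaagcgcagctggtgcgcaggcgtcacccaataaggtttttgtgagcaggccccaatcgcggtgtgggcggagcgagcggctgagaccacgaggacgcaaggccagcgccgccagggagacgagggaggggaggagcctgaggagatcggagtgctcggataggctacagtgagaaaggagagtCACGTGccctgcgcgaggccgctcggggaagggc
RNF220: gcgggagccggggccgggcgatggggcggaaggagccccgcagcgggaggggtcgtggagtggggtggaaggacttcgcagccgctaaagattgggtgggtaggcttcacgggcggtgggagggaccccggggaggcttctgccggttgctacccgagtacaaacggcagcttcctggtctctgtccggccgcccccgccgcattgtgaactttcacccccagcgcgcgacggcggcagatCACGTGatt
RAP1GAP2: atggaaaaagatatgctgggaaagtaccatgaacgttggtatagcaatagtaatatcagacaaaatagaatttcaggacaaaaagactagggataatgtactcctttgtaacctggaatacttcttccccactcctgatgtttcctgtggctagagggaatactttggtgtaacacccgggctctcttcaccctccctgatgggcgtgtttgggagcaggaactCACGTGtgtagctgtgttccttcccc
CDK5RAP3: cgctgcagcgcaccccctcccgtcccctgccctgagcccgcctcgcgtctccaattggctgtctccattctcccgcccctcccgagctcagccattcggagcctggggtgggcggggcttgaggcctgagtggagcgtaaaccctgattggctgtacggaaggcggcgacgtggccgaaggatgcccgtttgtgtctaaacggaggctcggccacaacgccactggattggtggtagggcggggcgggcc
ELFN1-AS1: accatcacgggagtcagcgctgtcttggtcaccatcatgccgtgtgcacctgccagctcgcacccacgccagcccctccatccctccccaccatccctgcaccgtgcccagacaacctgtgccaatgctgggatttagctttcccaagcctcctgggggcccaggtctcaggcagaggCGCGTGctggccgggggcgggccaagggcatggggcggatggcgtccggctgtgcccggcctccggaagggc
The LARP1 stretch is chr5:154755127-154755376 on the plus strand, and its CGCGTG begins 39 bp before the start. The PPRC1 stretch, chr10:102132790-102133039 on the plus strand, holds neither motif. In TAF12 (chr1:28643068-28643317 on the minus strand) CACGTG begins 121 bp before the start, in THNSL1 (chr10:25016362-25016611 on the plus strand) 34 bp, in RNF220 (chr1:44631718-44631967 on the plus strand) 9 bp and in RAP1GAP2 (chr17:2975411-2975660 on the plus strand) 26 bp before it. RAP1GAP2 had the lowest CpG content of the 8. Over its 300-base start window the ratio of observed to expected CpG is 0.245, with a GC content of 46.7%, whereas TAF12 has a ratio of 1.06 and 62.7% GC. The CDK5RAP3 stretch is chr17:47970863-47971112 on the plus strand and holds neither motif. In ELFN1-AS1, chr7:1742311-1742560 on the minus strand, CGCGTG begins 72 bp before the start.

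Among all starts, the letters CACGTG were searched on both strands in the 300 bases from 250 before to 50 after each start (the motif is its own reverse complement). They were present at 63 of the 553 starts nearest to the centre of a coding-start member, 11.4%. The share was 8.34% of all 22199 protein-coding starts, 7.26% of all 35116 coding and lncRNA starts, and 5.83% of the 3979 internal coding starts, those more than 2500 bp from every outermost gene end. At the 7383 outermost starts with a CM interval it was 12.3%, slightly above the members' share. Within the members, 44 of the 290 starts whose interval scored above the median of all intervals held CACGTG (15.2%), and 19 of the 263 below it (7.22%). Starts of members with peaks in both DMEM lists held it in 18.0% of 194 cases, and those with no DMEM peak in 9.09% of 198. The related letters CACGCG, or their reverse complement, were counted separately and were more frequent. A window can hold both motifs. CACGCG or its reverse complement occurred at 22.8% of the members' starts and 9.17% of internal coding starts. At all coding starts the share was 14.3%, and at outermost starts with a CM interval 22.8%. It was 25.8% at members' starts with both DMEM peaks and 24.7% at those with none. By score, it was 26.2% for members above the median of all intervals and 19.0% for those below it. A match of letters describes the window and is not a mapped binding site.

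Internal coding starts as a whole were seldom near a CM interval. Of the 3979, 721 (18.1%) had a common CM interval within 1000 bp, beside 43.8% of 16873 outermost starts. DMEM library 1 had a peak at 7.64% of the internal starts and library 2 at 12.4%. The 721 internal starts with a CM interval had a median CpG ratio of 0.844 and a GC content of 67.7%. The 3258 without one had a ratio of 0.328 and 52.3%. Outermost starts with a CM interval were much like the 721, at 0.877 and 66.7%, and those without one had 0.608 and 60.0%. The interval covered the start itself in 432 of the 553 coding-start members (78.1%), with a median distance of 249 bp between the interval's centre and the start. The start lay a median of 19730 bp inside its gene, with quartiles of 7961 and 49310 bp. In 355 of the 553, the host's outermost 5′ start had no common CM interval within 1000 bp, and in 198 (35.8%) it did. For members without an annotated start the outermost 5′ start of the host had one in 271 of 514 (52.7%), beside 42.5% of all 13504 genes over 5000 bp in the start table. The shares for members count a host again for each of its members, while the share of genes counts each gene once.

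Members without an annotated start were narrower, scored lower and lay deeper in genes than coding-start members. Their median width was 877 bp against 1177 bp at coding starts, and 1049 bp over all members against 1207 bp over all common intervals. The score is the authors' own value, used here only for ranks within a list (percentile 100 is highest). The median percentile in the common list was 31.3 without a start, 52.0 at coding starts, 48.4 at lncRNA starts, 41.1 where the host was not matched, 40.9 over all members and 53.8 at gene ends. The median distance from the host's 5′ end was 36740 bp without a start and 19930 bp at coding starts. When each gene was divided into 4 equal stretches, the 5′ stretch held 35.8% of coding-start members and 26.7% of those without a start, and the 3′ stretch 9.40% and 18.7%. Intervals are not replicates of a condition, so these differences are given with no test.

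**Figure D1:**
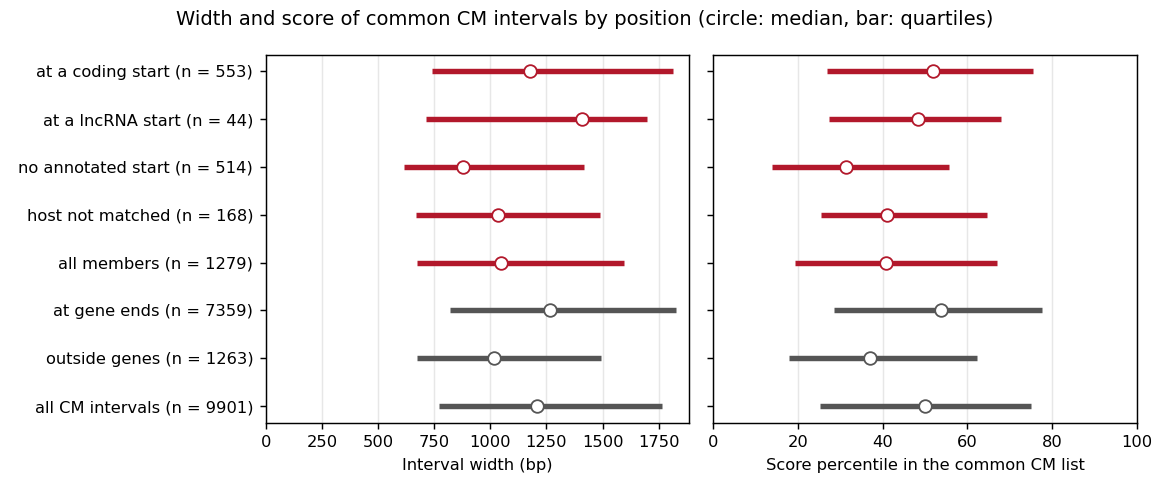
Width in bp (left) and score percentile within the common CM list (right) of members by class of start (red) and of other common CM intervals (grey); circles are medians and bars run between the quartiles. Members with no annotated start have the lowest medians on both axes, 877 bp and percentile 31.3.

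The 10 highest-scoring members all lay at a coding or lncRNA start. They were in ELFN1, LARP1, KLF16, PPRC1, ING5, WDR4, URI1, MSTO1, SLC19A1 and RUVBL1, and each had a peak in all 4 libraries. All of these except the ELFN1 interval lay at a coding start. Among the 100 highest-scoring common intervals were 12 members, 10 of them at coding starts, close to the members' share of all common intervals (12.9%). The ELFN1 interval (chr7:1740099-1743979, GRCh38) ranked 3rd of all 9901, with a mean score of 1996 and a width of 3881 bp. It covered the start of ELFN1-AS1, an lncRNA. Its peaks scored 2249 and 1743 in the CM libraries and 899 and 1643 in the DMEM libraries, at percentile 99.95 or higher in each list. LARP1 encodes an RNA-binding protein of messages for the translation machinery. Its interval (chr5:154753340-154757787) was 4448 bp wide, and its highest peaks scored 2001 and 1522 in CM and 875 and 1156 in DMEM, at percentiles 99.98, 99.95, 99.91 and 99.92. Scores are not scaled between libraries, so only the ranks may be compared, and for both members the ranks were near the top in every list.

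KLF16, a zinc-finger transcription factor, had an interval at chr19:1863367-1865898 with percentiles of 99.95 and 99.95 in the CM lists and 99.22 and 99.88 in the DMEM lists. PPRC1 encodes a coactivator of genes for mitochondria, related to PGC-1. Its interval, at chr10:102132021-102135400, stood at 99.79 and 99.81 in CM and 98.85 and 99.82 in DMEM. ING5, a reader of methylated histone H3 in acetyltransferase complexes, stood at 99.67, 99.69, 98.58 and 99.65 in the same order. The WDR4 interval had the lowest rank of the 10 in any list, percentile 93.65 in DMEM library 1, beside 99.69 and 99.64 in CM and 95.5 in DMEM library 2. WDR4 is a subunit of the enzyme that makes 7-methylguanosine in tRNA. The remaining 4 of the 10 were in URI1 (a prefoldin-like chaperone), MSTO1 (a regulator of mitochondrial shape), SLC19A1 (the reduced folate carrier) and RUVBL1 (an ATPase of chromatin-remodelling and chaperone complexes). They had mean scores of 1064.5, 1008.5, 994.5 and 933.5 and percentiles from 95.52 to 99.73 over the 4 lists. SLC19A1 held a further member of score 795, 6764 bp from its 5′ end and without an annotated start. The 6 widest members were in WDR25 (5298 bp), SSBP4 (5019 bp), SEPTIN9 (4860 bp), PLEC (4826 bp), HDGF (4821 bp) and LARP1 (4448 bp). Of the 319 common intervals of 3000 bp or more, 43 were members, close to the members' share of all common intervals (12.9%).

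Members without an annotated start had high scores too, but rarely (these examples were chosen after their values were seen). After the SLC19A1 interval, the highest were in SSC4D (779), COLEC11 (614), PSD4 (605), ITPA (585), the overlap of AMZ1 and GNA12 (561.5), LTBP4 (550.5) and PRRX2 (518.5), and all of them had peaks in all 4 lists. The SSC4D interval (chr7:76392218-76394673) stood at percentiles 98.36 and 99.31 in CM and 98.65 and 99.32 in DMEM. The LTBP4 interval, in a gene for a binding protein of latent TGF-beta, stood at 97.1 and 97.23 in CM but at 12.05 in DMEM library 1 and 75.04 in library 2, so its rank differed most between the lists among these 8. Of the members in the top 10% of scores, 79 in all, each had peaks in both DMEM lists and 65.8% lay at a coding or lncRNA start. Of all 990 common intervals in that range, 98.8% had both DMEM peaks and 81.3% lay at such a start.

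Noncoding genes inside the hosts lay at some members. An outermost end of an annotated lncRNA lay within 1000 bp of 202 members (15.8%), beside 22.96% of all common intervals. The corresponding counts were 17 for miRNA genes (1.33% against 1.46% of all), 4 for small nucleolar RNAs (0.313% against 0.657%), 3 for small nuclear RNAs (0.235% against 0.172%) and 2 for tRNA genes (0.156% against 0.838%). In EPB41L4A, an interval at chr5:112160229-112161979 lay at EPB41L4A-AS1 and the small nucleolar RNA gene SNORA13. It scored 509 and stood at percentiles 96.84 and 96.3 in CM and 97.2 and 94.81 in DMEM. Others lay at a coding start and an antisense or divergent lncRNA together, as at TAF12 with TAF12-DT (764.5) and BRWD1 with BRWD1-AS1 and BRWD1-AS2 (634). At SLC12A9 (567) an end of SLC12A9-AS1 lay within 1000 bp, but no lncRNA start of the start table did. Peaks carry no strand, so the start of a coding transcript and that of a nearby lncRNA cannot be told apart.

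Fewer members than common intervals overall were also found in DMEM. DMEM library 1 had a peak overlapping 27.9% of the members by at least 1 bp, beside 36.0% of all common intervals, and library 2 had one at 54.7%, beside 61.9%. Both DMEM lists had a peak at 25.5% of the members (33.8% of all intervals) and neither at 42.9% (35.8% of all). Of the members, 373 were found in DMEM library 2 only and 31 in library 1 only, and the list of library 1 is the shorter. Overlap was lower without a start than at coding starts, 20.6% against 36.7% in library 1 and 47.7% against 62.6% in library 2. Intervals at gene ends reached 39.2% and 65.3%, and those outside genes were lower than the members, at 25.7% and 49.6%, with neither DMEM peak at 48.1%.

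The overlap followed the score closely. In the lowest quartile of the common list's scores, DMEM library 2 had a peak at 23.1% of the 389 members there and at 21.4% of all intervals. In the next quartiles up, the shares were 40.3% of 352 members against 47.5% of all, 79.9% of 308 against 80.1%, and 96.1% of 230 against 98.6%. In library 1 they rose from 4.88% of members (4.40% of all) through 10.2% (13.8%) and 35.7% (39.5%) to 83.5% (86.2%). By start class, from the lowest quartile to the highest, DMEM library 1 had a peak at 3.82%, 10.6%, 38.7% and 90.0% of coding-start members and at 4.83%, 11.8%, 34.9% and 73.7% of members without a start. In library 2 these shares were 22.1%, 41.7%, 84.0% and 97.1% against 24.6%, 42.4%, 73.6% and 96.5%. The class without a start was thus slightly higher in the lower 2 quartiles and lower in the upper 2, in both libraries. The quartiles were added after seeing the data. Where both DMEM lists had peaks on the same member (326 members), the CM peaks covered more bases. For this measure the widths of all peaks of a library on a member were added together. Common intervals were defined by CM peaks alone, which favours CM in summed width, so the measure cannot compare the 2 media. The median summed widths were 1857 and 1373 bp in the CM libraries and 572 and 785.5 bp in the DMEM libraries. Intervals at gene ends with peaks in both DMEM lists had median summed widths of 1866, 1423, 683 and 821 bp in the same order. Single gene-body peaks of each list, on shared members or not, had medians of 546 and 486 bp in CM and 403 and 387 bp in DMEM. These medians were closer, but they are a different measure, since peaks were not added together. Depth is unknown, and its part in these widths and overlaps was not tested.

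**Figure D2:**
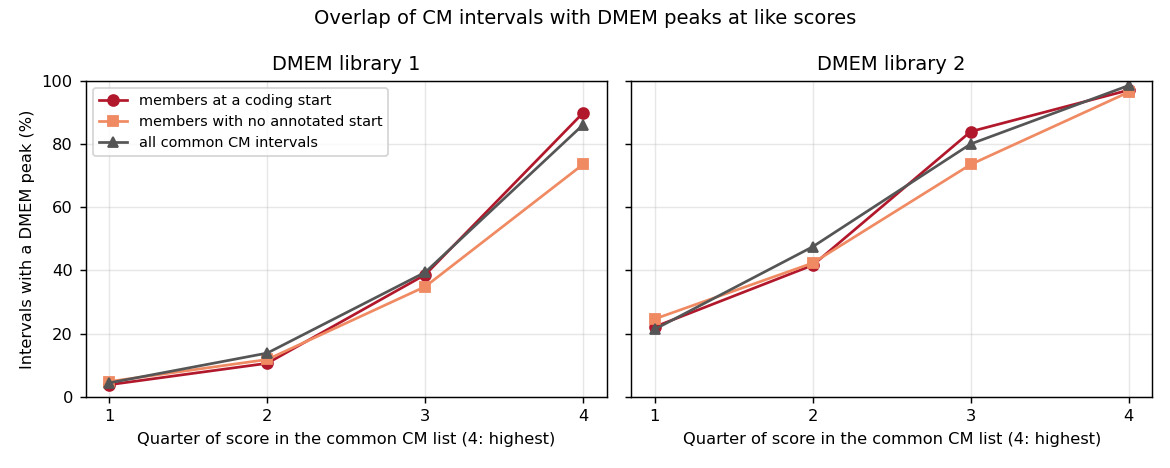
Share of common CM intervals with an overlapping peak in DMEM library 1 (left) and 2 (right), in percent, by quartile of score in the common CM list, for coding-start members, members without an annotated start and all common CM intervals. The share rises with score in every line, and members without a start lie lowest in the upper 2 quartiles of both libraries (73.7% against 86.2% of all in the top quartile of library 1).

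The highest-scoring members with no DMEM peak were in CDK5RAP3 (238), AP3D1 (229.5), DCAKD (229), RBFOX3 (195.5), LIMA1 (195) and RFPL1 (194.5). The CDK5RAP3 interval (chr17:47970570-47972124) lay 3443 bp from the gene's 5′ end at an annotated internal start, and stood at percentiles 83.86 and 88.35 in the CM lists. The DCAKD interval (chr17:45050350-45051714), also at a coding start, stood at 89.65 and 78.05. LIMA1, which encodes an actin-binding protein, and RBFOX3, a neuronal splicing regulator, held theirs away from annotated starts, at 82.05 and 81.18 and at 74.31 and 86.56. All 6 were ranked well below the 10 highest members.

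In each library's own list, gene bodies held 14.9% and 14.1% of the CM peaks (2277 and 1799 peaks) and 10.7% and 11.9% of the DMEM peaks (499 and 910). The mean was 14.5% ± 0.58 in CM and 11.3% ± 0.833 in DMEM (SD, n = 2 each). The groups did not overlap, and the difference of 3.17 percentage points gave p = 0.33 in an exact two-sided permutation test, the smallest that 2 against 2 libraries can give. Taking the 4657 top-scoring peaks of every list, as many as the shortest holds, the shares were 10.7% and 11.2% in CM and 10.7% and 11.5% in DMEM. The difference then had the opposite sign, -0.107 points (exact permutation p = 1.0). The share of gene-body peaks at an annotated coding start was 34.8% and 38.9% in the full CM lists and 53.3% and 46.2% in the full DMEM lists, but 54.0% and 54.7% against 53.3% and 51.1% at equal length. Of the gene-body peaks, 89.8% and 89.5% in the full DMEM lists overlapped a member, beside 59.0% and 82.0% in the full CM lists. At equal length the shares were 89.8% and 94.6% in DMEM and 99.4% and 98.7% in CM. The members come from the CM peaks themselves, and no share over all DMEM peaks is given beside these.

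**Figure D3:**
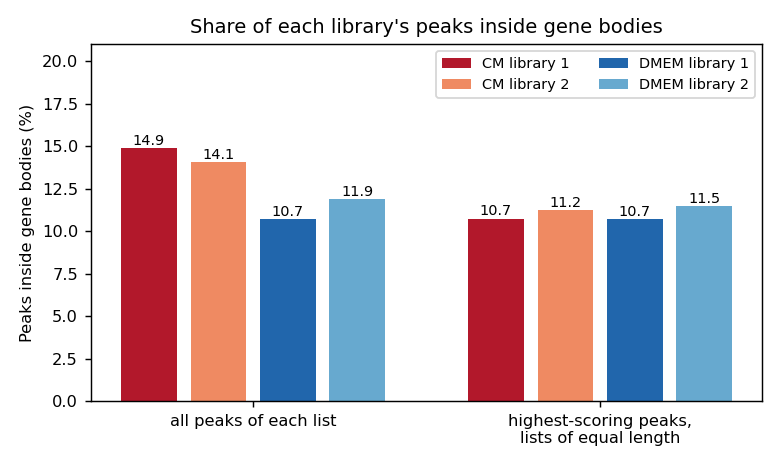
Percent of each library's peaks that lie inside gene bodies, for all peaks (left) and for the 4657 highest-scoring peaks of each list (right); each bar is 1 library. The CM bars are higher for full lists (14.9% and 14.1% against 10.7% and 11.9%), and the bars lie between 10.7% and 11.5% at equal length.

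The members lay in 944 protein-coding genes, 5.61% of the 16840 longer than 5000 bp, the only ones that can hold a member. A single member was found in 748 hosts, 2 in 119 and 3 or more in 77, and 19 members lay in 2 overlapping genes. Hosts were long, with a median of 75840 bp against 32660 bp over all genes that could hold a member. A member was present in 1.75% of genes of 5 to 20 kb, 4.74% of 20 to 50 kb, 8.24% of 50 to 100 kb, 11.6% of 100 to 300 kb and 9.96% of longer genes. Per length the number fell as genes got longer, from 3.04 members per Mb of gene interior in the shortest class through 2.12, 1.55 and 1.07 to 0.371 in the longest. From the shortest class to the longest, 48.7%, 47.3%, 49.5%, 42.3% and 24.2% of the members lay at a coding start, and 56.5%, 61.7%, 60.3%, 51.8% and 39.8% had a peak in DMEM library 2. Both shares were lowest in genes over 300 kb.

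**Figure D4:**
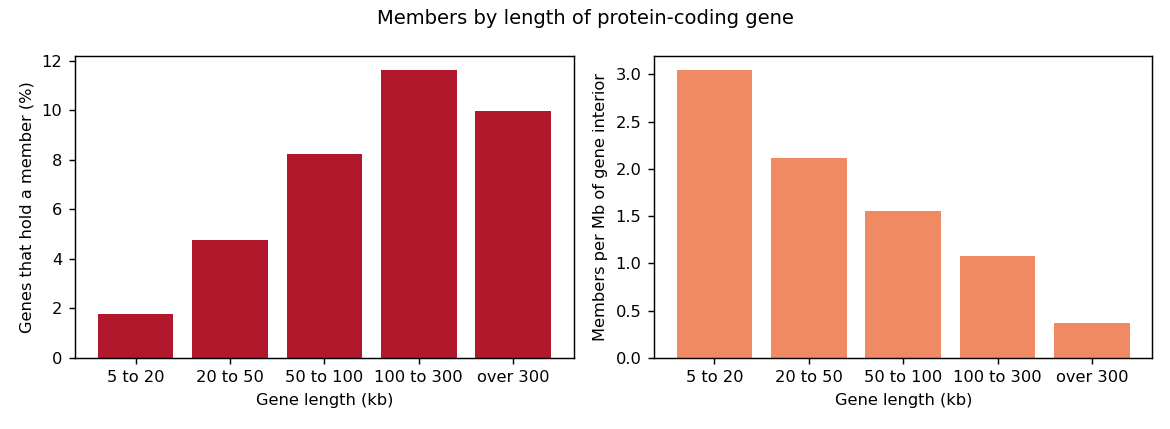
Percent of protein-coding genes that hold a member (left) and members per Mb of gene interior, the span more than 2500 bp from both ends (right), by gene length in kb. The share of hosts is highest from 100 to 300 kb (11.6%), while members per Mb fall from 3.04 in the shortest class to 0.371 in the longest.

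Some hosts held runs of intervals away from annotated starts. The 77 hosts with 3 or more members held 312 of them, of which 20.5% lay at coding starts (43.2% of all members). DMEM library 1 had a peak at 21.2% (27.9% of all members) and library 2 at 46.8% (54.7%). Their median score percentile was also lower, 36.7 against 40.9 over all members. CUBN, the gene of the endocytic receptor cubilin, held 11 members over 226.3 kb, none at an annotated start. Their scores ran from 53.5 to 221.5, and DMEM library 1 had a peak at 0 and library 2 at 3 of them. Its outermost 5′ start had no common CM interval. BCAR3, an adaptor of SRC and p130Cas signalling, held 10 members, 2 of them at coding starts and 1 at an lncRNA start, and its outermost 5′ start did have a CM interval. WDR25 held 10 within 63.94 kb, among them the widest member (chr14:100421099-100426396), which stood at percentiles 77.19 and 88.49 in CM and 89.54 and 87.56 in DMEM. DMEM library 1 had a peak at 3 and library 2 at 6 of the WDR25 members. PDE10A, a cyclic nucleotide phosphodiesterase, held 9 members, none at a start (2 and 4 with DMEM peaks). TPRG1 held 8, whose starts are not in the start table (3 and 2 with DMEM peaks). Whether neighbouring members of a run form 1 broad domain was not tested.

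**Figure D5:**
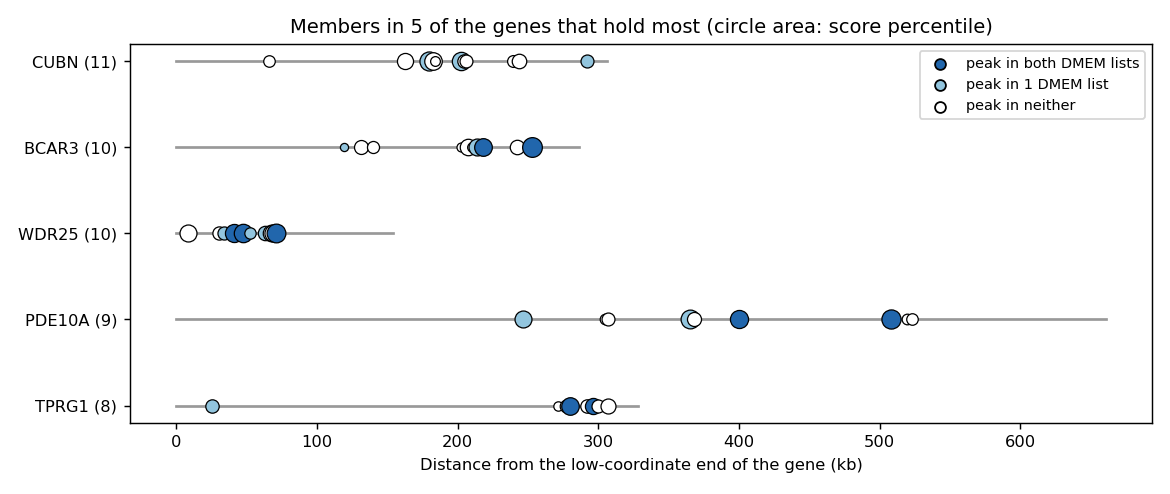
Members along 5 of the genes that hold most, as distance in kb from the low-coordinate end of each gene (grey line: the gene; circle area: score percentile; dark blue, pale blue and white: peak in both, 1 or neither DMEM list). The WDR25 members lie within 63.94 kb, and CUBN holds no member with peaks in both DMEM lists.

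By function, host genes were counted in 9 lists of genes, with 5.61% of all genes over 5000 bp as background. Gene length is given beside each list, since longer genes held members more often. Of all genes, 4.74% of 20 to 50 kb, 8.24% of 50 to 100 kb and 11.6% of 100 to 300 kb held a member. Transcription factors had 14 hosts of 40 (35.0%, median gene length 106500 bp). Their 23 members had a median percentile of 40.4, with peaks at 3 in DMEM library 1 and at 14 in library 2. The highest was in RUNX1, a factor of blood and epithelial development with a known internal promoter. That interval, at chr21:34887875-34890562, lay at a coding start 160084 bp from the outermost 5′ end and stood at percentiles 95.64 and 98.23 in CM and 91.49 and 83.24 in DMEM. NFIC, of the nuclear factor I family, held one without a start that scored 318.5 and stood at 91.0 and 92.12 in CM but 46.1 and 80.29 in DMEM. NFIB held 3 at coding starts with scores of 82, 150.5 and 121, and only the second had a peak in DMEM library 1. MAFK (170.5) and RXRA (123.7) stood at 77.69 and 78.05 and at 76.52 and 78.05 in CM, and both had a weak peak in DMEM library 2 alone, at percentiles 0.47 and 8.68. Genes known for internal promoters had 12 hosts of 30 (40.0%, median length 225800 bp), of which RUNX1, RUNX2, PLEC, DST and MACF1 also stand in other lists. Of their 26 members, 7 were at an annotated coding start, beside 43.2% of all members, but those in ANK1 and PLEC could not be classed. DMEM library 1 had a peak at 7 of the 26 and library 2 at 15, beside 27.9% and 54.7% of all members. ADAR, the RNA-editing enzyme whose longer form starts at an interferon-driven promoter, held 1 at a coding start (142) with no peak in DMEM library 1. ANK1 held 4 and PLEC 3 on chromosome 8, where starts were not analysed here and 47 members lay in all.

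Signalling and cytoskeletal genes held members of mostly modest rank, as did metabolic genes. The median percentile was 33.6 for actin and adhesion genes and 24.8 for TGF-beta, Hippo, Wnt and Notch genes. It was 33.2 for metabolic genes and 40.9 over all members. Actin and adhesion genes had 9 hosts of 40 (22.5%, median length 131400 bp) with 19 members. Of the 19, 3 lay at coding starts, beside 43.2% of all members. TRIO, a guanine nucleotide exchange factor, held the highest-scoring of the 19. It lay without a start at chr5:14264008-14265890, scored 393 and stood at 93.98 and 94.45 in CM and 85.81 and 91.65 in DMEM. SPTBN1 (158.7) and the lncRNA-start member of DST (165.7) also had peaks in all 4 lists, whereas both LIMA1 members had none in DMEM. TGF-beta, Hippo, Wnt and Notch genes had 7 hosts of 34 (20.6%, 102600 bp), led by TCF7L2 (186), a Wnt effector, and LRP5 (151), a Wnt co-receptor. WWTR1, the Hippo effector TAZ, held 5 members, of which 1, at a coding start, had a DMEM peak. Growth factor, RAS, ERK and PI3K genes had 5 hosts of 39 (12.8%, 87600 bp) with a median percentile of 17.1. EGFR held 3, and the highest (chr7:55073072-55075369, 315) stood at 92.92 and 89.08 in CM and 48.68 and 75.04 in DMEM. IGF1R held 4 without a start, MET 1 (73), SOS1 2 and GRB2 1 (47.7).

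Among metabolic genes 6 of 34 were hosts (17.6%, 38540 bp). Of their 9 members, 6 lay at coding starts, beside 43.2% of all members. PFKFB3, which makes the activator of phosphofructokinase, held 4. The highest (chr10:6162900-6164741, 448) had no annotated start and stood at 95.73 and 95.29 in CM and 75.65 and 92.54 in DMEM. ACLY, the enzyme that makes cytosolic acetyl-CoA (249), and SLC3A2, the heavy chain of amino acid transporters (205.5), had coding-start members with peaks in all 4 lists. SLC16A3, a lactate transporter, had no peak in DMEM library 1, and HK1, a hexokinase, had none in either. Chromatin regulators had 9 hosts of 37 (24.3%, 122500 bp), with KDM4C, a histone demethylase, highest at 257.5 and percentiles of 87.32, 88.71, 63.55 and 75.91 in the 2 CM and 2 DMEM lists. SMARCA2, a remodelling ATPase, held a coding-start member of score 162.7 that stood at 87.09 and 80.84 in CM and 87.06 and 86.0 in DMEM. KDM2A and KDM2B held 2 and 4, none with a peak in DMEM library 1. Ribosome biogenesis and translation genes had 2 hosts of 34 (5.88%, 27780 bp). PES1, needed to process ribosomal RNA, held a coding-start member with CACGTG in its window (516, percentiles 96.35, 97.03, 78.18 and 95.96). NPM1 held one of score 54 with no DMEM peak. Long neuronal and fragile-site genes had 0 hosts of 25, although their median length was 1504000 bp, beside 9.96% of all genes over 300 kb. The lists were compiled with earlier results of these data known, and their shares are given with no test.

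The limit of 2500 bp fell within a continuous range of positions. Just inside it lay intervals in SPMIP1 (2505 bp from the nearest gene end, score 62), CAMKK1 (2521 bp, 272.5) and IL17D (2522 bp, 73). Just outside lay those in JARID2 (2499 bp, 61.3), BANP (2459 bp, 39) and RGP1 (2457 bp, 73).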

How the data were processed

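MYC ChIP-seq peak lists of 4 libraries (2 CM, 2 DMEM) and the authors' common CM list were used, and the 2 inputs were not analysed here. The deposited lists hold positions and a score, the authors' value per peak; each common interval carries the mean score of its peaks, checked on all 9901. Per the submitters' processing notes, MACS2 2.1.1.20160309, Bowtie2 2.3.4, Trim Galore 0.4.3, Picard 2.9.0 and SAMtools 1.3.1 were used with GRCh38; settings: not given in the sources used here. Scores rank peaks within 1 list only, by the highest-scoring peak on an interval.

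Genes (20037 protein-coding) and starts (22199 coding, 12917 lncRNA) came from RefSeq GRCh38.p14. Coding genes with a start entry numbered 15843 (79.1%), and 806 of 944 hosts matched. Chromosome 8 starts, exons and introns were not analysed here. The motif search, planned over intervals, was made in start windows. Library shares were set against each other in a two-sided exact permutation test (6 relabellings). The classification was tested on simulated intervals (Python 3.11.15, pandas 2.3.3).

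Members and gene lists were chosen with earlier results of these data known. Named are the 10 highest-scoring, 6 widest, 6 highest with both and with no DMEM peaks, 8 highest at noncoding ends or starts, 3 nearest the limit on each side, the 6 hosts with most members and up to 5 leading hosts per list; 1 host is not reported here. Alternatives varied distances, ends avoided, score minimum, overlap, list length, windows and libraries.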

Additional observations from a re-analysis of the deposited data

How the results depend on the processing

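Of 52 alternative values, 36 stayed within the limit set for that result, 15 moved beyond it and 1 reversed. For the number of members the limit was a set fold change. For the gene-body share of the lists only the sign had to agree, whatever the size. The replicate block reuses the same shares, and the groups did not overlap. These alternatives and those leaving out single libraries could thus only agree, and add nothing as support. For the other results the limit was the SD between single libraries. For the share of members with peaks in both DMEM lists (25.5%) that was the wide SD between the DMEM libraries. Only 16.1% had both when DMEM peaks needed a score of at least 50. The reversal was the difference in gene-body share between the lists, -0.107 points at equal list length, where the weaker peaks of the longer lists are left out. Leaving out single libraries, this difference ran from 2.58 to 3.75 points. With the replicate block (relabelling within libraries of the same number) it was 3.17 points with an exact permutation p of 0.5, the smallest that 2 pairs can give. Nothing in the labels says that the numbers mark a shared culture or day.

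At more than 10000 bp from gene ends 830 members remained, 39.9% of them at coding starts. At more than 1000 bp the median width was 997 bp and the median score percentile 38.7. From the peaks of single CM libraries, without either replicate in turn, members numbered 1799 to 2277, with median widths of 486 to 546 bp and 34.8% to 38.9% at coding starts. These lists hold single peaks rather than merged intervals. Among members with a matched host, 50.2% lay at a coding start (added after seeing the data, as were all alternatives for starts and motif). The share of members with DMEM peaks was 27.9% without DMEM library 2 and 54.7% without library 1, against 25.5% with both required. In a shorter window, from 100 bases before to 50 after the start, CACGTG was present at 7.59% of members' starts and 5.04% of all coding starts. The other alternatives kept the 300-base window, where the main share was 11.4%. There CACGTG was present at 10.1% and 10.3% beyond 5000 and 10000 bp, and at 9.84% to 10.9% from single CM libraries. Depth could not be assessed, so absence from a DMEM list does not show absence of binding.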
